A study of Homo sapiens with 4 samples.

Results

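The ATF4 stress response genes described here are 10 human genes named one by one, ATF4, DDIT3, TRIB3, ASNS, CHAC1, SESN2, DDIT4, PPP1R15A, PSAT1 and PHGDH, out of 28058 genes in the count table. All 10 had a row in the table, and 9 passed the filter on low counts and were tested; the exception was ASNS, the asparagine synthetase gene. Poly(A) RNA was sequenced from 2 samples labelled SH-SY5Y, a human neuroblastoma cell line, given shock wave treatment (SWT). It was also sequenced from 2 untreated control samples with the same line in their label. The sample protocols describe flasks filled with medium and dipped in water at 37 °C, 7 cm from the shock wave applicator, which gave 300 impulses of 0.08 mJ/mm2 at 3 Hz; RNA was taken 6 h later. The labels do not say whether control flasks were also dipped. The series design text mentions exosomes instead of direct treatment, and this difference could not be settled. Separate cultures are not stated for the 2 samples of a group, and each p-value here therefore reflects sample-to-sample spread that could be purely technical.

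ATF4 is a basic leucine zipper transcription factor at the centre of the integrated stress response. Stress-activated kinases phosphorylate the translation factor eIF2, which lowers protein synthesis in general while the ATF4 messenger is translated more, so the protein can rise without a change in its messenger. ATF4, often paired with C/EBP proteins, then drives genes for amino acid synthesis and uptake, for redox balance, and for brakes that end the response or, through DDIT3 (also called CHOP), favour cell death. Such target genes are commonly read as a report of ATF4 activity, because the messenger of ATF4 is a weaker one.

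The short DNA element that ATF4 and C/EBP proteins bind together was looked for in RefSeq promoters (GRCh38.p14) of all 10 genes, from 250 bases before to 50 after each annotated start. The letters TGATGNAA, searched on both strands, were found in 1 of the 2 promoters listed for ASNS and in the promoter of CHAC1, thus in 2 of the 10 genes, against 4.46% of 27305 genes with such promoters. The full cAMP response element TGACGTCA, which reads the same on both strands and which ATF-family factors can bind, was found in the promoter of PPP1R15A, 1 of the 10 genes, against 2.25% of all genes with promoters. By promoter, the shares were 3.62% and 1.85% of 35116. The 3 stretches below are shown because they place these letters in genes whose values follow; capitals mark the match, and each is given 5′ to 3′ along the gene's own strand. The ASNS stretch lies at chr7:97872443-97872502 (minus strand), that of CHAC1 at chr15:40953236-40953295 (plus strand) and that of PPP1R15A at chr19:48872337-48872396 (plus strand).
ASNS: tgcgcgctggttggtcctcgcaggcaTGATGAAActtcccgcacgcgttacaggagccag
CHAC1: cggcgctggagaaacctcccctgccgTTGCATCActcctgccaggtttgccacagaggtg
PPP1R15A: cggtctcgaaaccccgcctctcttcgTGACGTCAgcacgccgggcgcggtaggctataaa
In CHAC1 the match is on the opposite strand, so it is printed as the complement read backwards. A match describes the letters only, and the absence of one for the other 7 genes says nothing of sites outside these windows.

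Libraries held 9888263 to 11686808 counts. The line's label was checked against 18 noradrenergic neuroblastoma markers, of which 8 passed the filter, with a sum over the list of 393 to 419 CPM in SWT and 404 to 413 CPM in control libraries. Of the 18, 9 stayed under 1 CPM in every library. These include 6 with 0 counts in every library, among them PHOX2A, TH, DBH, CHGA and MYCN. Of 14 mesenchymal markers, 14 passed the filter. Their sum was 12113 to 13002 CPM in SWT and 12473 to 13589 CPM in control libraries. Several noradrenergic markers were thus without counts, while the mesenchymal markers all had reads. The identity of the cells beyond the label was not tested. Heart muscle transcripts stood out in control replicate 2: the atrial myosin gene MYH6 had 27 and 2 counts in SWT replicates 1 and 2, against 0 and 952 in control replicates 1 and 2. Leaving out 26 listed heart muscle genes, 13 of which were tested, left the log2 fold change of CHAC1 at 0.57 and that of DDIT4 at -0.23. That fit removed only the rows of the listed genes. It cannot tell whether heart muscle RNA added reads to CHAC1 or DDIT4, which was not tested. Libraries also differed along GC content, with Spearman's rho across 6293 genes of -0.40 for SWT minus control, 0.38 for SWT replicate 2 minus 1 and -0.48 for control replicate 2 minus 1.

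None of the 9 tested genes passed the test between SWT and control samples (edgeR's quasi-likelihood test, Benjamini-Hochberg adjusted p from 0.838 to 0.997), against a background of 0% of 12399 genes tested. Without adjustment, 2 of the 9 had a p under 0.05, CHAC1 (higher in SWT by value) and DDIT4 (lower in SWT by value), where 5.77% of all genes did. The SWT libraries both lay above both control libraries for CHAC1 and PSAT1, 2 of 9, against 17.3% of all genes, and below both for 0 of 9, against 18% of all genes. The median log2 fold change was 0.02 over the 9 genes and -0.00078 over all genes tested, with 5 of the 9 above 0 and 4 below. These shares are of 9 genes and say nothing particular about them.

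**Figure D1:**
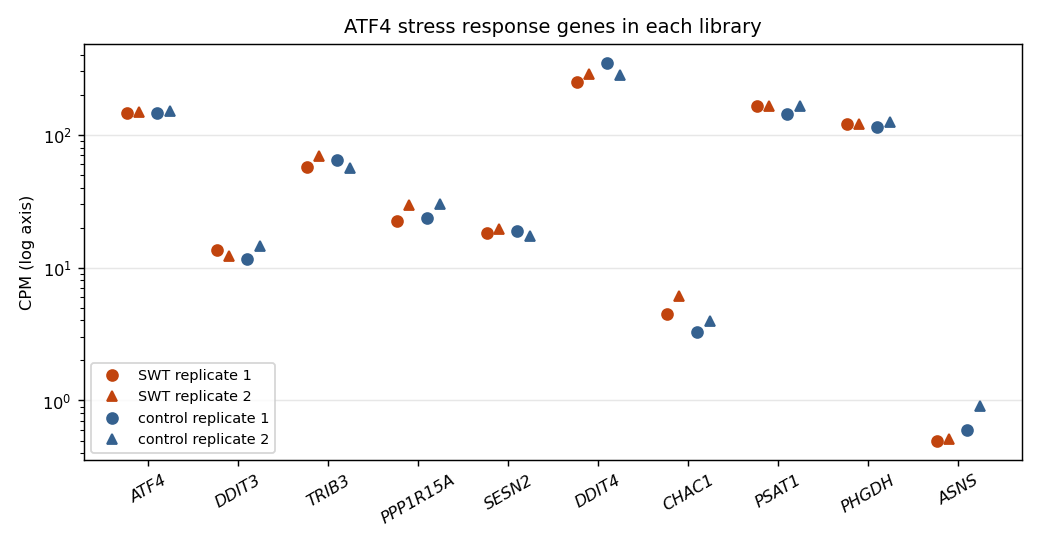
Levels in CPM (log axis) of the 10 genes in each library, SWT left of control for each gene, circles for replicate 1 and triangles for replicate 2. Only CHAC1 and PSAT1 have both SWT points above both control points, and for PSAT1 the gap to control replicate 2 is 164.485 against 164.476 CPM.

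ATF4 itself varied little among the 4 libraries. Its level was 145 and 148 CPM in SWT replicates 1 and 2, against 145 and 151 CPM in control replicates 1 and 2. The controls held both the lowest and the highest value. CPM are counts scaled to a library of 1000000 counts, with library sizes adjusted by TMM. The highest of the 4 libraries was 1.04 times the lowest, and the coefficient of variation over the libraries was 1.81%, below the 2.51% that counting error alone gives at these counts. The log2 fold change was -0.01 (SE 0.06, 95% interval -0.13 to 0.11, edgeR adjusted p = 0.996), which bounds a difference in the messenger to between 0.911-fold and 1.08-fold. ATF4 (chromosome 22, 39519695 to 39522685 in GENCODE 29 on GRCh38) has 4 named pseudogenes, so reads can be shared with them.

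DDIT3, the transcription factor linked to cell death under prolonged stress, varied more within groups than between them. It had 13.5 and 12.2 CPM in SWT replicates 1 and 2, against 11.6 and 14.5 CPM in control replicates 1 and 2, and the controls enclosed both SWT values. The log2 fold change was -0.02 (SE 0.14, 95% interval -0.32 to 0.28, edgeR adjusted p = 0.997), and the control libraries differed from each other by 0.31. With 135 to 143 counts per library and 2 libraries per group, the interval ran from 0.800-fold to 1.22-fold, and differences inside it are not excluded. DDIT3 (chromosome 12, 57516588 to 57521737) shares 982 bases with MARS, a methionyl-tRNA synthetase gene, in GENCODE 29, and 65 bases in RefSeq. In GENCODE 29 it shares 1028 bases with MBD6, and MBD6 and MARS both lie on the opposite strand. It also shares 2769 bases with AC022506.1 on its own strand, which was not analysed here. These overlaps are of whole gene spans, introns included. The strand setting of the counting is not given in the sources used here, so reads of these overlaps cannot be assigned with certainty.

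TRIB3 and PPP1R15A, which damp the response, showed no difference beyond replicate spread. TRIB3, a pseudokinase that binds ATF4 and DDIT3 and restrains them, had 57.5 and 69.2 CPM in SWT replicates 1 and 2, against 64.4 and 55.9 CPM in control replicates 1 and 2. The lowest and the second highest of these were both control libraries, and the log2 fold change was 0.08 (SE 0.09, edgeR adjusted p = 0.939). PPP1R15A, also called GADD34, brings protein phosphatase 1 to eIF2 to restore translation, and it is the gene whose promoter stretch with a cAMP response element is shown above. It had 22.2 and 29.4 CPM in SWT replicates 1 and 2, against 23.7 and 30.1 CPM in control replicates 1 and 2. In each group replicate 2 was the higher library, by 0.40 on the log2 scale in SWT and 0.35 in control, while the groups differed by -0.05 (SE 0.13, edgeR adjusted p = 0.987). Its constitutive relative PPP1R15B averaged 181 ± 0.132 CPM in SWT and 172 ± 2.33 CPM in control (SD, n = 2 each; edgeR adjusted p = 0.902).

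SESN2 and DDIT4 restrain the growth kinase complex TORC1. Their log2 fold changes were 0.06 and -0.23, neither passed the test, and the genes were not tested against each other. SESN2, a leucine-binding stress protein, had 18.1 and 19.7 CPM in SWT replicates 1 and 2, against 18.9 and 17.2 CPM in control replicates 1 and 2. The groups overlapped, with a log2 fold change of 0.06 (SE 0.12, 95% interval -0.18 to 0.31, edgeR adjusted p = 0.967). The related sestrin gene SESN1, a p53 target, stood at 24.4 ± 0.877 CPM in SWT and 25.2 ± 0.898 CPM in control (SD, n = 2 each), and SESN3 had under 1 CPM in every library.

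DDIT4, also called REDD1, is induced by ATF4, by hypoxia and by glucocorticoids and was the most abundant of the 10. It had 248 and 287 CPM in SWT replicates 1 and 2, against 346 and 282 CPM in control replicates 1 and 2. Control replicate 1 was above the other 3 libraries, and SWT replicate 2 lay just above control replicate 2, so the groups overlapped. SWT over control gave -0.23 on the log2 scale (SE 0.08, 95% interval -0.41 to -0.06, edgeR adjusted p = 0.838), 0.85-fold in SWT relative to control. The call depended on the setting. Without a filter on low counts it passed as lower in SWT at -0.23 (edgeR adjusted p = 0.0211, where 0.355% of 17737 genes were called). Without control replicate 2 it passed at -0.37, where the only control was control replicate 1, the highest library. That fit holds no spread between controls. It also passed at -0.23 with a block that paired SWT replicate 2 with control replicate 1 and SWT replicate 1 with control replicate 2, a pairing chosen after seeing the data (edgeR adjusted p = 0.000318, where 0.782% of 12399 genes were called). Over the 15 other alternatives the log2 fold change of DDIT4 ran from -0.37 to -0.07. Robust empirical Bayes with all libraries moved its unadjusted edgeR p from 0.0112 to 0.102. With control replicate 1 left out the value was -0.07, with SWT replicate 1 left out it was -0.13, and with the GC content and length trend of each library removed it was -0.18, without a call in any of these. DDIT4 (chromosome 10, 72273920 to 72276036) shares 1066 bases with the antisense gene DDIT4-AS1, which was not analysed here. Its relative DDIT4L stood at 3.28 ± 0.272 CPM in SWT and 4.49 ± 0.479 CPM in control (SD, n = 2 each), and its groups did not overlap (-0.46 on the log2 scale, SE 0.22, edgeR adjusted p = 0.843).

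**Figure D2:**
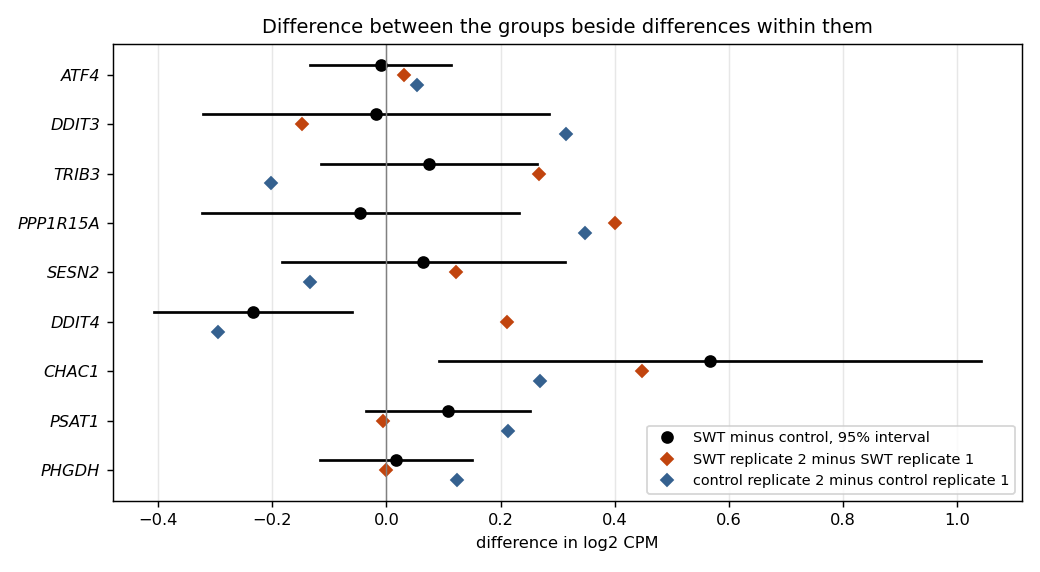
Differences in log2 CPM of the 9 tested genes: black points with lines are SWT minus control with 95% intervals, and diamonds are replicate 2 minus replicate 1 within SWT and within control. For 8 of the 9 genes a diamond lies farther from 0 than the black point, against 76.9% of all genes tested. The exception is CHAC1.

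CHAC1, which degrades glutathione and is a target of ATF4 that often responds strongly, had the largest fold change of the 9 by value. It had 4.47 and 6.10 CPM in SWT replicates 1 and 2, from 45 and 71 counts, against 3.27 and 3.94 CPM in control replicates 1 and 2, from 38 and 39 counts. Both SWT libraries lay above both controls, and SWT replicate 2 stood apart from the other 3. The log2 fold change was 0.57 (SE 0.23, 95% interval 0.09 to 1.04, edgeR adjusted p = 0.838), 1.48-fold in SWT relative to control, and it was larger in size than that of 98.1% of genes tested. In abundance, CHAC1 lay at the 15.1 percentile of those genes. It was above 0 in all 14 alternatives that gave a value, with adjusted p from 0.203 to 1.00, and it ranged from 0.31 when SWT replicate 2 was left out to 0.76 when SWT replicate 1 was. In the deposited log2 values, whose scale is compressed, it was 0.03. The letters of the C/EBP-ATF element shown above begin at position -209 from its RefSeq start. CHAC2, the constitutive relative of CHAC1, had 17.4 ± 0.285 CPM in SWT and 19.1 ± 2.43 CPM in control (SD, n = 2 each), or -0.13 on the log2 scale (SE 0.12, edgeR adjusted p = 0.928).

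**Figure D3:**
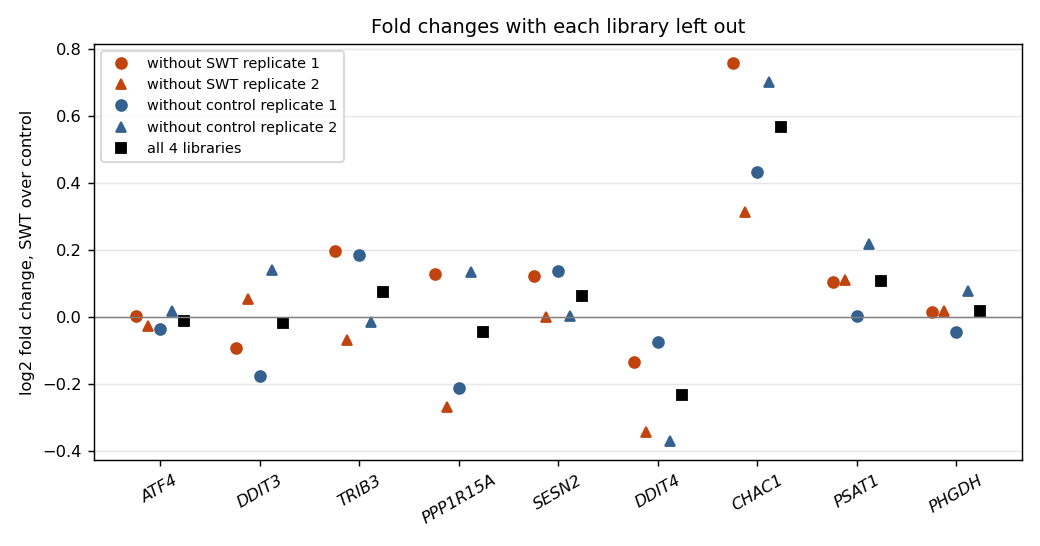
Log2 fold changes (SWT over control) of the 9 tested genes with all 4 libraries (black squares) and with each library left out in turn. CHAC1, PSAT1 and SESN2 stay above 0 and DDIT4 below 0 in all 5 fits, while PPP1R15A spans -0.27 to 0.13. For CHAC1 this follows from both SWT libraries lying above both controls.

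The serine pathway enzymes PHGDH and PSAT1 stood at nearly equal levels in 3 libraries and lower in control replicate 1. PHGDH, which takes the first step from glycolysis towards serine, had 121.1 and 121.0 CPM in SWT replicates 1 and 2, against 114.7 and 124.9 CPM in control replicates 1 and 2, so the controls enclosed the SWT values (log2 fold change 0.02, SE 0.06, edgeR adjusted p = 0.990). PSAT1, which takes the next step by adding the amino group, had 165.1 and 164.5 CPM in SWT replicates 1 and 2, against 141.8 and 164.5 CPM in control replicates 1 and 2. Its log2 fold change was 0.11 (SE 0.07, edgeR adjusted p = 0.886), 0.0037 without control replicate 1 and 0.22 without control replicate 2, where it passed (edgeR adjusted p = 0.0423, with 1.6% of genes called). Over its 15 alternatives the log2 fold change of PSAT1 ran from 0.0037 to 0.22. PSAT1 (chromosome 9, 78297143 to 78330093) has 4 named pseudogenes. Control replicate 1 was the lowest library for 5 of the 9 tested genes, ATF4, DDIT3, CHAC1, PSAT1 and PHGDH, and the highest for DDIT4 alone. For ATF4 it was barely so, at 145.19 CPM against 145.25 CPM in SWT replicate 1. The share over all genes tested was not computed, so this count says nothing particular about these genes.

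ASNS, which makes asparagine and is the classic ATF4 target with an ATF4 element in its promoter (shown above), was almost without counts. It had 5 and 6 counts in SWT replicates 1 and 2, against 7 and 9 counts in control replicates 1 and 2, or 0.496 and 0.515 CPM in SWT and 0.603 and 0.910 CPM in control. Both SWT values lay below both control values, but at such counts the groups cannot be compared: fitted without a filter, the log2 fold change was -0.55 (SE 0.66, edgeR adjusted p = 0.921). All 20425 bases of ASNS (chromosome 7, 97852118 to 97872542) lie inside the read-through gene CZ1P-ASNS of RefSeq, which has a row of its own in the count table with 1 and 1 counts in SWT and 0 and 2 in control. Genes in the same position were low in general. Of 121 protein-coding genes taken as the downstream partner of a listed read-through gene that they overlap, 84.3% averaged under 1 CPM. The share was 40.0% of 18235 other protein-coding genes and 34.6% of 107 genes taken as the upstream partner. Partners were set by hyphenated symbol and overlap alone, so not every pair need be a read-through. An example is PTPRE with AS-PTPRE, at 53.5 CPM for PTPRE. Among the 121 is EIF4A1, a translation initiation factor gene, which had 0 counts in all 4 libraries. EGFL8 and SAPCD1 of the 121 had 0 counts as well, and so did their upstream partners PPT2 and MSH5. VARS, which is not among the 121, also had 0 counts in all 4 libraries. The cause of these zeros was not tested. How reads over 2 genes were counted is not given in the sources used here, and the part of this overlap in the ASNS value was not tested, so 5 to 9 counts are not read as the expression of ASNS. None of the other 9 genes is the downstream partner in such a pair.

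**Figure D4:**
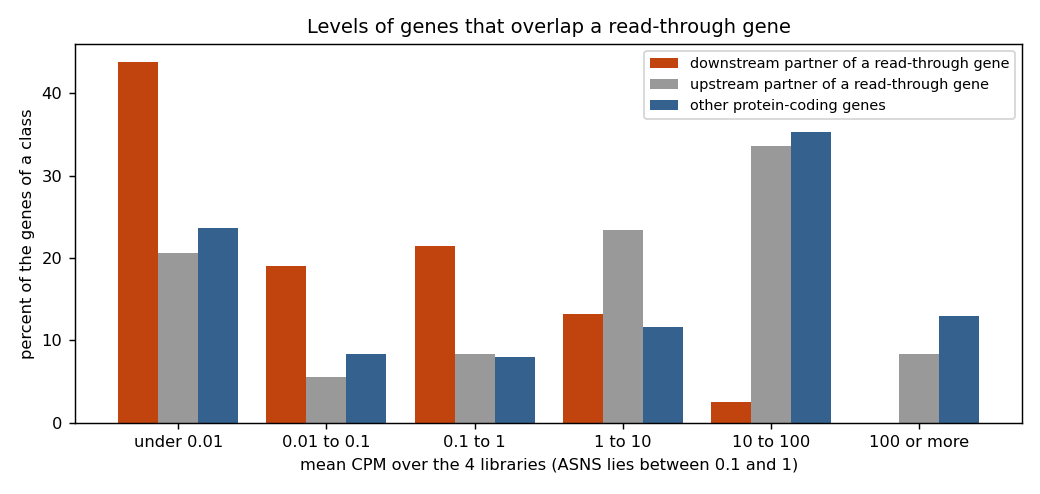
Percent of genes by mean CPM over the 4 libraries, for 121 downstream partners of read-through genes, 107 upstream partners and 18235 other protein-coding genes. Partners were set by hyphenated symbol and overlap alone. The downstream partners, ASNS among them, are concentrated under 1 CPM (84.3%), and 2.48% of them reach 10 CPM against 48.3% of the other genes.

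Per kilobase of the longest GENCODE transcript, the levels of the 10 genes spanned a wide range over all 4 libraries. DDIT4 was highest at 166 ± 23.4 CPM per kilobase (SD, n = 4). ATF4 at 73.0 ± 1.32 and PSAT1 at 72.7 ± 5.23 CPM per kilobase followed and did not differ beyond their spread. PHGDH at 37.9 ± 1.33 and TRIB3 at 24.7 ± 2.47 CPM per kilobase came next, each clear of its neighbours. DDIT3 at 12.1 ± 1.20 and PPP1R15A at 11.1 ± 1.67 CPM per kilobase were within each other's spread. SESN2 at 5.34 ± 0.306 and CHAC1 at 2.40 ± 0.651 CPM per kilobase were the lowest of the tested genes. Depth behind these levels differed, with 1220 to 1916 counts per library for ATF4, PSAT1 and PHGDH and 38 to 71 for CHAC1.

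The wider pathway was read from 8 further gene lists, in which no gene passed the test in either direction over all genes (0% of 12399). Of 10 amino acid transporter genes under ATF4, 8 lay above 0 and the median was 0.08 on the log2 scale, and 6 had both SWT libraries above both controls. Of 18 aminoacyl-tRNA synthetase genes, 13 lay above 0, with a median of 0.03. All genes tested had a median of -0.00078 and 17.3% with both SWT libraries higher. SLC43A1, a neutral amino acid transporter gene, had 3.47 and 3.26 CPM in SWT replicates 1 and 2, against 2.15 and 1.82 CPM in control replicates 1 and 2 (log2 fold change 0.75, SE 0.27, edgeR adjusted p = 0.838). SLC7A5, the large neutral amino acid transporter gene, had 210 and 223 CPM in SWT, against 179 and 208 CPM in control (0.16, SE 0.07, edgeR adjusted p = 0.838). The cystine transporter gene SLC7A11 stood at 0.34 (SE 0.07, edgeR adjusted p = 0.759), with both SWT libraries higher. In these 3 genes both SWT libraries stood above both controls. Among synthetases the smallest p-values were those of WARS at 0.10, RARS at 0.09 and EPRS at 0.07 on the log2 scale.

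Upstream of ATF4, 21 genes of the eIF2 kinases, phosphatase and exchange factor had 11 values above 0 and 10 below, with a median of 0.01. EIF2B3 and EIF2B4, subunits of the factor that recharges eIF2, stood at -0.18 each (SE 0.08, edgeR adjusted p = 0.843), with both SWT libraries below both controls, and IMPACT, an inhibitor of the kinase GCN2, at 0.17. The ER stress kinase gene EIF2AK3 averaged 24.8 ± 0.330 CPM in SWT and 25.9 ± 3.85 CPM in control (SD, n = 2 each; edgeR adjusted p = 0.959). Among 12 genes listed as partners and sister factors of ATF4, 7 lay above 0 with a median of 0.07. The stress factor gene ATF3 had 4.17 ± 0.288 CPM in SWT and 3.42 ± 0.453 CPM in control (SD, n = 2 each; edgeR adjusted p = 0.910). CEBPB, a partner of ATF4, stood at -0.21 (SE 0.13, edgeR adjusted p = 0.875), and JUN and FOSL1, the AP-1 subunit genes, at 0.26 and 0.24.

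Downstream, serine, glycine and one-carbon enzymes beyond PHGDH and PSAT1 had 5 of 14 values above 0 and a median of -0.01. The mitochondrial folate enzyme gene ALDH1L2 stood at 0.19 and MTHFD1L at 0.13, both with the SWT libraries above both controls. Other ATF4 targets of redox balance, autophagy and secretion had 17 of 27 above 0 and a median of 0.03. The autophagy gene ATG12 had 78.0 and 73.4 CPM in SWT replicates 1 and 2, against 56.4 and 67.0 CPM in control replicates 1 and 2 (0.30, SE 0.08, edgeR adjusted p = 0.821), the tRNA exporter gene XPOT stood at 0.12 and the cell cycle inhibitor gene CDKN1A at -0.16. The stress hormone gene GDF15 averaged 80.5 ± 0.399 CPM in SWT and 77.4 ± 3.15 CPM in control (SD, n = 2 each; edgeR adjusted p = 0.939).

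The ATF6 and XBP1 arm of the unfolded protein response, which serves the same organelle through other sensors, had 10 of 22 values above 0 and a median of -0.01. HSPA5, the ER chaperone gene also called BiP, averaged 997 ± 12.8 CPM in SWT and 1031 ± 18.7 CPM in control (SD, n = 2 each), or -0.05 on the log2 scale (edgeR adjusted p = 0.928), and PDIA4, HSP90B1 and HYOU1 stood at -0.10, -0.06 and -0.07. Regulators of TORC1 and relatives of TRIB3 and CHAC1 had 3 of 15 values above 0 and a median of -0.04. TRIB1 averaged 5.56 ± 0.276 CPM in SWT and 4.44 ± 0.305 CPM in control, and TRIB2 averaged 37.4 ± 0.0599 CPM in SWT and 41.2 ± 2.84 CPM in control (SD, n = 2 each; edgeR adjusted p = 0.871 and 0.870). DEPDC5, of a complex that inhibits TORC1, stood at 0.24 (SE 0.13, edgeR adjusted p = 0.845).

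**Figure D5:**
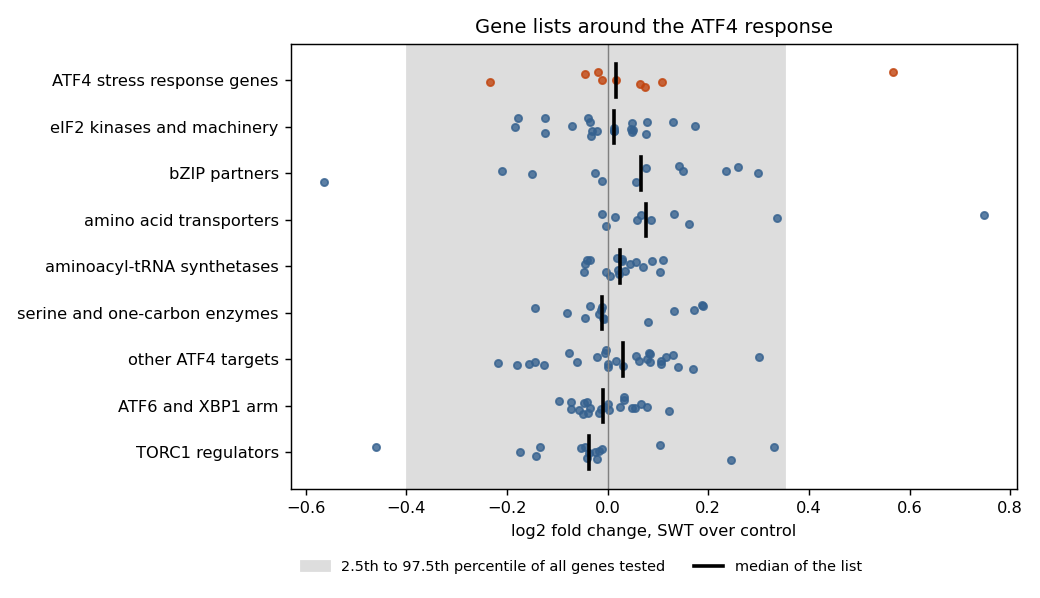
Log2 fold changes (SWT over control) of tested genes in the ATF4 stress response (9 genes, red) and 8 lists around it (blue), with list medians as black bars and the central 95% of all genes tested in grey. List medians lie between -0.04 and 0.08, and CHAC1 is the one ATF4 stress response gene outside the grey range of -0.40 to 0.35.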

How the data were processed

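The authors deposited raw counts per gene symbol (28058 genes) and a table of log2 values (17151 genes) whose making is not given in the sources used here; between SWT replicate 2 and control replicate 1 its differences were 0.378 times those of log2 CPM (prior count 2). Per the submitters' processing notes, the tools included STAR 2.5.3a, Trimmomatic 0.36, HTSeq, FastQC 0.11.5 and DESeq2, with the build hg38. Per the labels' protocols, library preparation kept strand; annotation and counting strand are not given in the sources used here.

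Groups and replicates came from the sample titles. The main test on counts was that of edgeR 4.0.16 (R 4.3.3), with TMM factors (0.997 to 1.00), filterByExpr, the quasi-likelihood F-test, and Benjamini-Hochberg adjustment over 12399 genes at 0.05. Standard errors were derived from the F statistic and the fold change, and 95% intervals use a t quantile, so both are approximate and not adjusted for the number of genes. Alternatives used DESeq2 1.42.0 and limma 3.58.1. Length and GC content were those of the longest GENCODE 29 transcript, known for 97.4% of tested genes. Promoters were RefSeq's, found for all 10 genes. Only the edgeR fit of group, without its filter step, was run on simulated counts. Those counts held no GC trend between libraries and no heart muscle signal in a single library. The other methods and settings were not run on them.

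The members and lists were chosen with earlier results of these data known. All 10 members are named; from each further list at most 3 genes with the smallest unadjusted p are named, plus relatives of the members. EIF2AK3, GDF15, HSPA5, MYH6, EIF4A1, EGFL8, SAPCD1, PPT2, MSH5, VARS, PTPRE and the noradrenergic markers at 0 were named after their values were seen. So was the set of read-through genes. Some genes that these rules name are not reported here.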

Additional observations from a re-analysis of the deposited data

How the results depend on the processing

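Counts of genes called rested on the filter and on the libraries. With all 4 libraries edgeR called 0 genes higher and 0 lower (715 at an unadjusted p under 0.05), and so did DESeq2, limma on the deposited log2 values, limma-voom, other scalings, robust empirical Bayes, a mean count of at least 50 and the fit without heart muscle genes. Without a filter 20 genes were higher and 43 lower in SWT, among them 1 of the 10 genes described (DDIT4). With 1 library left out at a time there were 2 to 106 higher, 15 to 97 lower and 0 to 2 of the tested ATF4 stress response genes; the lone library of a group was then assumed to vary like the other group. With the GC content and length trend removed 1 gene was higher. The replicate block called 0 higher and 1 lower, and none of the 9; same-numbered samples deviated with a correlation of -0.283 over 6324 genes, so the numbers gave no sign of pairing. A crossed replicate block, chosen after seeing the data, called 55 higher, 42 lower and 1 of the 9 (DDIT4).

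Of 134 fold changes of the 9 genes under the 15 other alternative settings, 119 kept their direction and stayed without a call, 3 kept it with a call (DDIT4 under 2 settings, PSAT1 under 1) and 12 changed sign. With GC content and length removed the values were 0.041 for ATF4, 0.0027 for DDIT3 and 0.015 for PPP1R15A. Leaving out libraries gave -0.037 to 0.017 for ATF4, -0.17 to 0.14 for DDIT3, -0.068 to 0.20 for TRIB3, -0.27 to 0.13 for PPP1R15A and -0.044 to 0.079 for PHGDH. The cause was not tested. Counts limit CHAC1 and ASNS most, and CHAC1 gave no value with a mean count of at least 50.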
